A study of Mus musculus with 2 samples.

Results

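SiglecF and 9 other receptors that carry, or belong to families that carry, inhibitory signals were described in native eosinophils of mouse bone marrow. The members were chosen by gene symbol: Siglec5 (the deposited symbol of the SiglecF gene), Siglece, Cd33, Cd22, Lilrb3 (PIR-B), Lilrb4 (gp49B), Cd300a, Cd300lf, Clec12a and Clec4a2. All 10 were found by exact symbol among the 23343 genes of the tables. The cells came from naïve, untreated C57BL6J animals at homeostasis, and were gated as CCR3+, SiglecF+ from marrow pooled across an unstated number of animals. There was 1 group with 2 sorts, called sort 1 and sort 2, each with 1 stranded poly(A) library, and no other condition. Since the gate itself used SiglecF protein, detection of Siglec5 RNA describes the gate and is no independent result.

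Inhibitory receptors restrain activating signals at the leukocyte surface. Most carry immunoreceptor tyrosine-based inhibitory motifs (ITIMs) in the cytoplasmic tail, which Src-family kinases phosphorylate and which then recruit the phosphatases SHP-1, SHP-2 or SHIP-1. Many belong to paired families, in which a close relative with a short tail signals through an activating adaptor such as DAP12 or the Fc receptor gamma chain. SiglecF binds sialylated glycans, and its engagement by antibody is known to promote eosinophil death.

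Sort 1 had 10087743 counted reads and sort 2 had 9264150, of which the ribosomal RNA entry Rn45s took 914623 in sort 1 and 89209 in sort 2. All 9 eosinophil markers were detected, with summed levels of 3449 RPKM in sort 1 and 4289 in sort 2 (RPKM, reads scaled by transcript length and by library size). Ccr3 among them encodes a protein used in the gate. All 11 measured neutrophil markers were also detected, at summed levels of 4230 and 3953 RPKM. The highest of them, Retnlg, had 2321 RPKM in sort 1 and 2439 in sort 2, and the highest eosinophil marker, Ear1, had 1232 and 1462. Likewise detected were all 5 granulocyte precursor markers, at summed levels of 253 and 292 RPKM, and 7 of 9 basophil and mast cell markers, at 33.6 and 35.4 RPKM. Of the measured T and natural killer cell markers and the erythroid markers 0 were detected, at summed levels of 1.48 and 0.808 RPKM and of 3.37 and 5.16 RPKM. In bulk RNA, fewer cells of a type and less RNA per cell cannot be told apart. The part of other granulocytes in each receptor's level was not tested. The sorts also differed in sex-linked RNA. Xist had 47487 reads in sort 1 and 5 in sort 2, and the Y-linked Kdm5d had 0 and 756, so the sex of the pooled animals and the sort cannot be told apart.

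Of the 10 receptors 9 were detected, with detection set at 1 RPKM or more in each sort, where 30.2% of all genes reached that level. Their levels ran from 79.7 ± 10.8 RPKM for Clec12a to 8.16 ± 0.958 RPKM for Clec4a2 (SD, n = 2 sorts). The exception was Cd22 at 0.200 ± 0.0148 RPKM. The median of the 10 was 22.9 RPKM in sort 1 and 19.9 in sort 2, beside 0.108 and 0.0896 for all genes. The mean of the detected genes had a median of 4.03 RPKM, and each of the 9 detected receptors lay above it. An SD from 2 libraries is itself imprecise, and no test between genes was made.

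**Figure D1:**
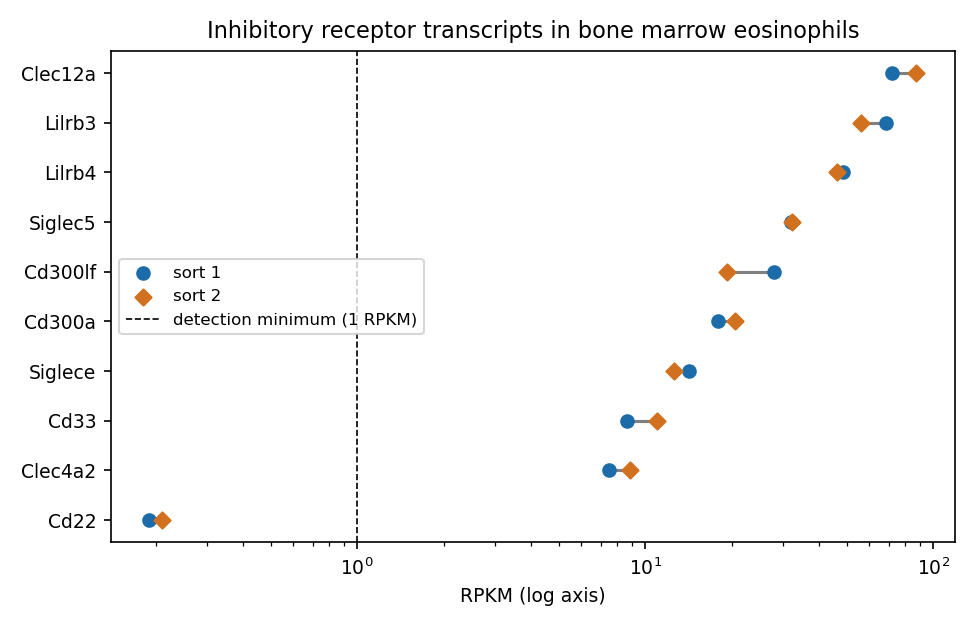
RPKM of each receptor (log axis) in sort 1 (circles) and sort 2 (diamonds), joined by a grey line, with the detection minimum of 1 RPKM dashed. Clec12a was highest at 72.1 and 87.4 RPKM, Siglec5 gave nearly the same value in both sorts, and Cd22 alone lay below the minimum.

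By RNA, Siglec5 was the highest of the measured Siglec genes. The cells were gated on SiglecF protein, so this rank is no independent result. Siglec5 had 32.1 RPKM in sort 1 from 3263 reads and 32.2 RPKM in sort 2 from 3281 reads. The sorts were thus close, and their mean of 32.2 ± 0.0656 RPKM (SD, n = 2) put the gene at rank 362 of the 7048 detected genes. It lies on chromosome 7 from 43351341 to 43359470 on the plus strand (mm10), and its reads fell in 1 deposited row of 2 RefSeq transcripts. The transcript of the other gating marker, the eotaxin receptor Ccr3, was 3.56 times as high in sort 1 and 3.65 times in sort 2. The 4 genes nearest to Siglec5 in log2(RPKM + 1) over the 2 sorts were Rps3a1 at 32.0 RPKM, Lst1 at 32.3, Jak1 at 31.9 and Skap2 at 33.0, a likeness of level in only 2 libraries.

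Siglece, an ITIM-bearing receptor of mouse neutrophils and other myeloid cells, had 14.2 RPKM in sort 1 and 12.5 in sort 2. Cd33, a Siglec whose mouse form lacks the classic ITIM arrangement of the human receptor, had 8.64 RPKM in sort 1 and 11.0 in sort 2. The ranges of Siglece and Cd33 did not overlap, and Siglec5 exceeded Cd33 3.72-fold in sort 1 and 2.92-fold in sort 2. Siglecg, an inhibitory Siglec best known from B cells, stood between Siglec5 and Siglece with 19.4 and 18.6 RPKM. Siglece spans 43651070 to 43660161 and Cd33 spans 43527456 to 43533171, both on the minus strand of chromosome 7, where Siglec5 also lies.

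The other Siglecs were low. Mag, the myelin-associated Siglec, had 1.40 RPKM in sort 1 and 1.02 in sort 2, and Siglec1, the sialoadhesin of macrophages, had 0.518 and 0.335 RPKM. Siglech, a plasmacytoid dendritic cell marker, had 7 reads in sort 1 and 8 in sort 2, and Siglec15 had 0 and 2 reads. In all, 5 of the 9 Siglec genes were detected, beside 30.2% of all genes. Their list median was 1.40 RPKM in sort 1 and 1.02 in sort 2.

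Cd22, the inhibitory co-receptor of B cells, had 29 reads and 0.190 RPKM in sort 1 and 33 reads and 0.211 RPKM in sort 2. Siglec5 was 169 times as high per length in sort 1 and 153 times in sort 2. The reads fell in 2 deposited rows with different starts: the row with 1 transcript had 17 reads in sort 1 and 33 in sort 2, and the row with 3 transcripts had 12 and 0. The gene spans 30865404 to 30880342 on the minus strand of chromosome 7. Of the B cell markers 3 of 11 were detected and none was at 0, with summed levels of 12.1 RPKM in sort 1 and 8.96 in sort 2. Among them Cd79b was highest by mean RPKM, with 134 reads in sort 1 and 88 in sort 2. The lowest was Ms4a1, the CD20 gene, with 16 reads in sort 1 and 26 in sort 2. The part of B cells in the Cd22 level was not tested.

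The upstream sequences of Siglec5 and Cd33, both on chromosome 7, are shown for their shared bases. This pair held the longest run of identical bases, 16, among the promoter windows of the receptors. A window spans 250 bases before the transcript start and 50 after it, from RefSeq on GRCm38.p6, and was given for 9 of the 10 receptors. Each of the 9 starts was the start of a deposited row. Capitals mark bases that were identical in a local alignment of the pair, which covered 79 positions, 62 of them identical (78.5%). The aligned stretch lies from -30 to 49 around the start of Siglec5, where base 1 is the first transcribed base, and from -160 to -81 upstream of Cd33. The windows are chr7:43351091-43351390 on the plus strand for Siglec5 and chr7:43533122-43533421 on the minus strand for Cd33.
Siglec5: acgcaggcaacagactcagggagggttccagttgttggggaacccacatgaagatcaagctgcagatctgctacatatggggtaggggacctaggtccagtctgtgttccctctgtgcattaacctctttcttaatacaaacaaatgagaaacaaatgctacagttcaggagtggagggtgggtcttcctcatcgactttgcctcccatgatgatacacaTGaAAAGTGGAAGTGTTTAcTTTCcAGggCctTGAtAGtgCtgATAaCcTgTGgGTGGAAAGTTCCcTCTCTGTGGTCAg
Cd33: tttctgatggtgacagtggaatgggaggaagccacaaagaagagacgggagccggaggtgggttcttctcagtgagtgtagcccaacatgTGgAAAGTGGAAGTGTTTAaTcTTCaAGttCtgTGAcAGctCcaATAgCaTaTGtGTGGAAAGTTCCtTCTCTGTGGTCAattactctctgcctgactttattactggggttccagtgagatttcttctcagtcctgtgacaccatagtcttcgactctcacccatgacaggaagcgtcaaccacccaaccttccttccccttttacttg
The stretch holds the letters GGAAGT, the core of many ETS-family sites. Within it they are identical in both genes. In either orientation the letters were found once in each of the 2 windows, and in 23.8% of the 32851 promoter windows of the table. The letters TGATAA, a common form of a GATA-family site, were found once in the Siglec5 window, in neither orientation in the Cd33 window, and in 9.05% of all windows. Only some of these bases were identical in the alignment. The tables hold no binding data, so these are descriptions of letters.

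The immunoglobulin-like receptors of the LILR and PIR family came next to the highest level, that of Clec12a. Lilrb3, which encodes PIR-B, an ITIM-bearing receptor of MHC class I, had 68.6 RPKM from 7576 reads in sort 1 and 56.1 RPKM from 6218 reads in sort 2. Lilrb4, which encodes gp49B, an ITIM-bearing receptor known to restrain mast cells, had 48.6 RPKM from 2789 reads in sort 1 and 46.2 from 2659 in sort 2. By the deposited RPKM, each sort placed Lilrb3 above Lilrb4, and both above Siglec5, without overlap of ranges. Lilrb3 spans 3712505 to 3720382 on the minus strand of chromosome 7, and Lilrb4 spans 51490975 to 51496611 on the plus strand of chromosome 10.

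The close relatives of both genes were expressed as well. Gp49a, the neighbour of Lilrb4, whose product lacks the ITIM tail, had 148 RPKM in sort 1 and 160 in sort 2. The ratio of Gp49a to Lilrb4 was 3.05 in sort 1 and 3.46 in sort 2. Lilra6, a PIR-A-type gene, had 23.2 and 24.5 RPKM. Lilrb3 was 2.96 times as high as Lilra6 in sort 1 and 2.29 times in sort 2. Among the remaining PIR-A entries the joint entry of Gm14548 and Pira4 had 10.6 and 9.20 RPKM, Pira7 10.4 and 8.61, Pira11 9.25 and 5.26, Pira6 3.99 and 2.09, and Pira2 2.20 and 1.86. PIR-A proteins pair with the Fc receptor gamma chain and activate. Of 11 measured entries of the family 9 were detected, beside 30.2% of all genes. Exceptions were Lilra5 with 2 reads in each sort and Pira1 with none.

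Levels within this family are uncertain because its genes are near copies. The transcripts of the receptors were compared by words of 50 or 100 bases with the transcripts of all other genes in the tables that matched GENCODE vM21 by accession. For Lilrb4, 27.6% of 50-base words and 14.3% of 100-base words also occurred in Gp49a. For Lilrb3, 29.2% of 50-base words and 17.8% of 100-base words occurred in another gene, most often in the joint entry of Gm14548 and Pira4. Neither the read length nor the treatment of reads that match several genes is stated in the sources used here. The lengths implied by the deposited RPKM also differed from those of the matched GENCODE transcripts. They were about 2734 against 3824 bases for Lilrb3, 1421 against 1381 for Lilrb4, and 1308 against 1836 for Gp49a. With the same reads over the GENCODE lengths, Lilrb4 would lie above Lilrb3 in each sort. The order of these 2 genes therefore depends on the length used.

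The coding sequences of Lilrb4 and Gp49a are 1005 and 909 bases long without the stop codon, which gives 335 and 303 codons. Over 907 aligned positions they were identical at 871, or 96.0%, with the longest identical run at 126 bases. The first 120 coding bases are shown to let the nearness be seen, with the 2 differing positions in capitals. On the plus strand of chromosome 10 (mm10) they start at 51491018 for Lilrb4 and at 51480720 for Gp49a.
Lilrb4: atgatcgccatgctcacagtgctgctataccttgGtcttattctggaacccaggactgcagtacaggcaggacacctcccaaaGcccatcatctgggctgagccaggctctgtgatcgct
Gp49a: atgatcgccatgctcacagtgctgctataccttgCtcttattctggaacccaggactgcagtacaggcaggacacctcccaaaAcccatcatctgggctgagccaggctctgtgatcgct
Within this window the genes are distinguished by those 2 positions, so reads that cover neither cannot be assigned by sequence.

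**Figure D2:**
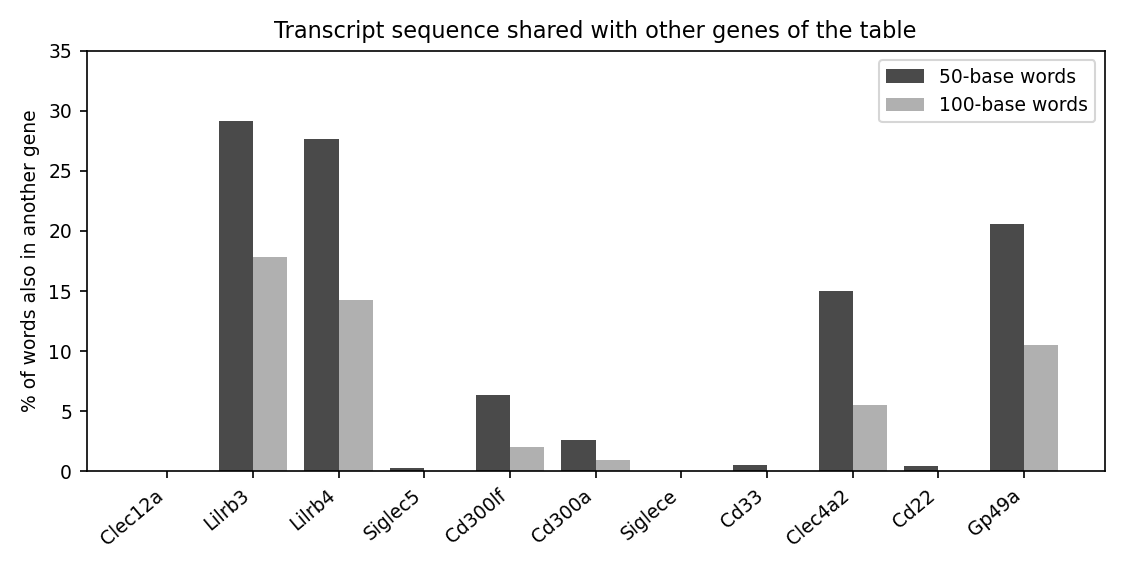
Share of 50-base (dark) and 100-base (light) words of each receptor transcript that also occur in a transcript of another gene of the tables, in percent, with Gp49a added. Where a gene had several transcripts in rows with reads, the one with the highest share is drawn. Lilrb3 reached 29.2% and Lilrb4 27.6% for 50-base words, while Clec12a and Siglece had no shared word of either length.

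Both CD300 receptors were detected and lay below Siglec5 in each sort. Cd300lf, whose product CLM-1 binds ceramide and phosphatidylserine, had 28.0 RPKM from 2122 reads in sort 1 and 19.3 RPKM from 1467 reads in sort 2. Cd300a, an ITIM-bearing receptor of exposed phosphatidylserine and phosphatidylethanolamine, had 17.8 RPKM from 3352 reads in sort 1 and 20.4 RPKM from 3853 reads in sort 2. Their ranges overlapped and their order differed between the sorts, so neither could be called higher. Cd300lf lies on chromosome 11 from 115116214 to 115133992 on the minus strand, and Cd300a from 114890041 to 114904651 on the plus strand. At most 6.39% of the 50-base words of a Cd300lf transcript and 2.63% of those of Cd300a occurred in another gene.

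Cd300lb, an activating member of the family, exceeded both with 38.0 RPKM in sort 1 and 42.6 in sort 2. The ratio of Cd300lb to Cd300a was 2.13 in sort 1 and 2.09 in sort 2, and that to Cd300lf was 1.36 and 2.21. Cd300ld had 6.95 and 5.75 RPKM, and AF251705, the deposited symbol of Cd300c2 by its accession, had 4.34 and 4.82 RPKM. These, with Cd300lf and Cd300a, were the 5 detected of 9 measured genes, beside 30.2% of all genes. Cd300lh, Cd300e and Cd300c had at most 21 reads in either sort, and Cd300lg had none.

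Clec12a, the ITIM-bearing C-type lectin that senses uric acid crystals, had the highest level of the 10 receptors. It had 72.1 RPKM from 6488 reads in sort 1 and 87.4 RPKM from 7884 reads in sort 2, and its mean lay in the top 1.43% of detected genes. It exceeded Lilrb3 by only 1.05-fold in sort 1 and by 1.56-fold in sort 2, with ranges that did not overlap. The gene spans 129350244 to 129365303 on the plus strand of chromosome 6.

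Clec4a2, which encodes the ITIM-bearing lectin DCIR of dendritic cells and other myeloid cells, had 7.49 RPKM from 759 reads in sort 1 and 8.84 RPKM from 894 reads in sort 2. Its range overlapped that of Cd33. All of its reads were in the row that starts at 123123316 on chromosome 6, and the row that starts at 123122690 had 0 reads in both sorts. Of the 50-base words of the 2 transcripts in that row, 15.0% and 8.76% also occurred in another gene, most often Clec4a4 with 9.41% and 4.69%, so its level carries some uncertainty. Clec4a4 itself had 2 reads in sort 1 and 0 in sort 2.

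Most of the lectin genes around these were below the detection minimum, as were most genes of the tables. Of 17 genes in the C-type lectin list 4 were detected, a share somewhat below but near the 30.2% of all genes. Apart from Clec12a and Clec4a2 these were Clec2d, a ligand of an inhibitory natural killer receptor, with 12.2 and 8.11 RPKM, and Clec7a, the beta-glucan receptor Dectin-1, with 2.69 and 2.87. Clec1b, the podoplanin receptor of platelets, had 0.589 and 0.989 RPKM, and Clec4a1, of the DCIR cluster, had 0.571 and 0.648 RPKM. The list median was 0.470 RPKM in sort 1 and 0.646 in sort 2, beside 0.108 and 0.0896 for all genes. Dendritic cell markers reached 3 of 11 detected with summed levels of 8.58 and 7.32 RPKM and none at 0. Monocyte and macrophage markers reached 5 of 12, at 80.9 and 64.8 RPKM and with none at 0 in both sorts. The part of either cell type in the lectin levels was not tested.

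**Figure D3:**
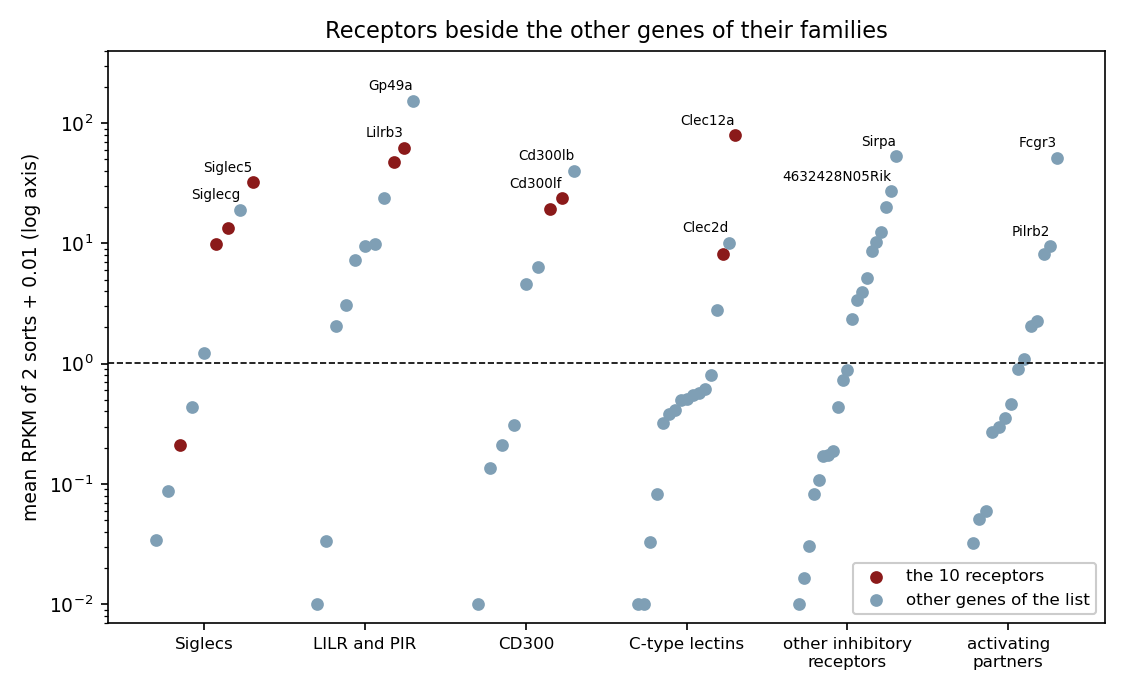
Mean RPKM of the 2 sorts plus 0.01 (log axis) for every measured gene of 6 lists, with the 10 receptors in red and the other genes of each list in blue, and the detection minimum dashed. Gp49a at 154 RPKM stood above Lilrb3 and Lilrb4, and Cd300lb at 40.3 RPKM above Cd300lf and Cd300a. Clec12a led its list, and so did Siglec5, whose protein was used in the gate.

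**Figure D4:**
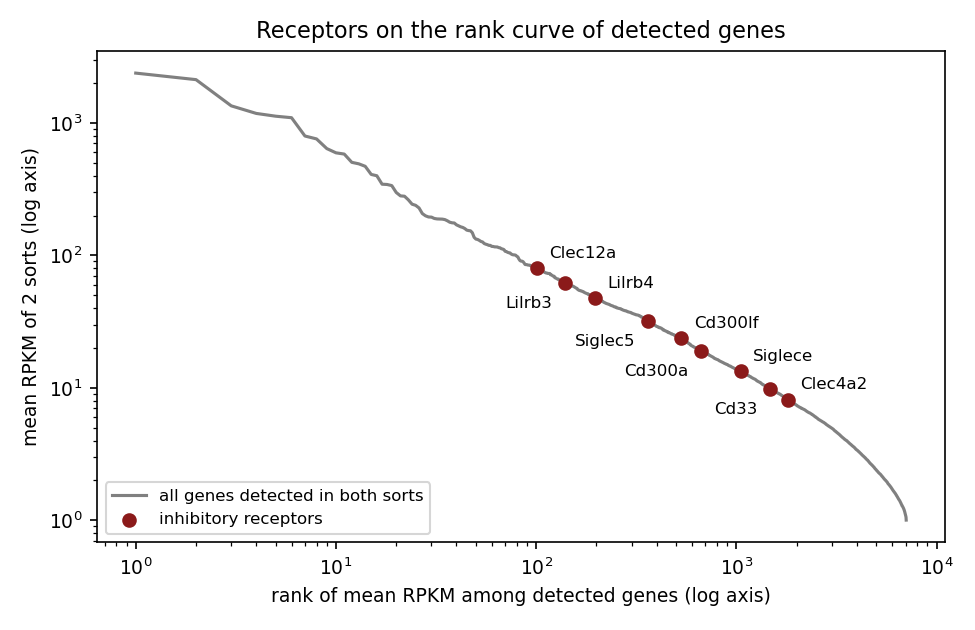
Mean RPKM of the 2 sorts against its rank (both axes logarithmic) for the 7048 genes detected in both sorts (grey line), with the 9 detected receptors in red. The receptors spread from the top 1.43% for Clec12a to rank 1810 for Clec4a2.

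Ordered by the mean of the deposited RPKM, the receptors ran Clec12a, Lilrb3, Lilrb4, Siglec5, Cd300lf, Cd300a, Siglece, Cd33, Clec4a2 and Cd22. Of the 45 pairs among them 43 had ranges over the 2 sorts that did not overlap. Lilrb3 and Lilrb4 are counted there by the deposited RPKM, though their order reverses under the GENCODE lengths. The pairs that overlapped were Cd300lf with Cd300a, and Cd33 with Clec4a2. Between neighbours in this order the ratio of means was at most 1.47, apart from the step from Clec4a2 to Cd22, which was 40.8. With counts scaled by library size but not by length (CPM), 40 of the 45 pairs kept this order.

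Other inhibitory receptors were compared from a list of 21 genes. Of these, 10 were detected, beside 30.2% of all genes, and the list had medians of 1.03 RPKM in sort 1 and 0.707 in sort 2. Sirpa, the receptor of the "do not eat me" signal CD47, had 58.3 RPKM in sort 1 and 48.0 in sort 2. The gene 4632428N05Rik, now named Vsir and encoding the checkpoint protein VISTA, had 29.7 and 24.4 RPKM. Ceacam1, an adhesion receptor with ITIMs, had 16.3 and 23.6 RPKM, and Fcgr2b, the inhibitory Fc receptor for IgG, had 13.6 and 11.4.

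Activating partners of paired receptors were taken from a list of 16 genes. Of these, 5 were detected, a share near the 30.2% of all genes, with list medians of 0.481 RPKM in sort 1 and 0.352 in sort 2. Fcgr3, an activating IgG receptor, led with 53.5 and 49.3 RPKM. The activating partners of the inhibitory receptor Pilra followed, Pilrb2 with 10.8 and 8.14 RPKM and Pilrb1 with 390 reads in sort 1 and 290 in sort 2. Pilra itself had 2.60 and 2.09 RPKM. Trem3, a DAP12-coupled receptor, had 90 reads in sort 1 and 102 in sort 2.

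A list of 18 signalling genes held effectors of inhibitory receptors together with activating adaptors and kinases. Of these, 14 were detected, beside 30.2% of all genes. The medians of this mixed list were 19.1 RPKM in sort 1 and 11.6 in sort 2. Of the activating adaptors, Tyrobp (DAP12) had 340 RPKM in sort 1 and 219 in sort 2, Fcer1g (the Fc receptor gamma chain) had 166 and 174, and Hcst (DAP10) had 9.55 and 5.52. The kinase Syk had 37.1 RPKM in sort 1 and 30.6 in sort 2. Among the phosphatases recruited by ITIMs, Ptpn6 (SHP-1) had 27.8 RPKM in sort 1 and 18.7 in sort 2, and Inpp5d (SHIP-1) had 12.4 and 10.3. Ptpn11 (SHP-2) was lower, with 2.53 and 2.25 RPKM.

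A further list held enzymes that make, transfer or remove sialic acid, the ligand of Siglecs, and sulfotransferases that modify glycans. Of its 23 genes 8 were detected, beside 30.2% of all genes. Its medians were 0.759 RPKM in sort 1 and 0.641 in sort 2. Cmas, which activates sialic acid for transfer, had 17.7 and 15.1 RPKM. The transferases St8sia4 and St3gal1 had 11.0 and 13.5 RPKM, and 11.0 and 11.2 RPKM. Neu1, the lysosomal sialidase, had 10.6 and 8.86 RPKM. The sulfotransferase Chst1 had 0 and 0.00918 RPKM, and Chst4 had no reads in either sort.

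No receptor differed by more than 2-fold between the sorts, and none by more than 1.5-fold. Of the 12347 genes with at least 10 reads, 1240 (10%) differed by more than 2-fold, 746 of them (6.04% of all) higher in sort 1, and 26.1% differed by more than 1.5-fold. The log2 ratio of sort 1 to sort 2 was taken from CPM scaled by the trimmed mean of M values (TMM), and it ran from -0.43 for Cd33 to 0.46 for Cd300lf, a 1.38-fold difference for Cd300lf. The median size of the ratio was 0.25 on the log2 scale for the receptors and 0.33 for all tested genes. That background holds all genes from 10 reads up, so each receptor was also set beside up to 1000 tested genes nearest in mean RPKM. The share of these with a smaller ratio size was 82% for Cd300lf, 79% for Cd33, 67% for Clec12a and 60.4% for Clec4a2. It was 57.1% for Cd300a, 46.4% for Lilrb3, 22.2% for Cd22, 21.1% for Siglece, 16.7% for Siglec5 and 0.431% for Lilrb4. Lilrb4 had a ratio of 0.00 with a 95% interval from -0.08 to 0.08, and Siglec5 one of -0.08 with an interval from -0.15 to -0.01. Cd300lf had an interval from 0.37 to 0.56, Cd33 from -0.56 to -0.30, Clec12a from -0.40 to -0.30 and Cd22 from -1.03 to 0.51. These exact binomial intervals cover counting error only. They exclude equality for 7 of the 10 receptors, but with 1 library per sort a difference has no replicate check.

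Other measures also differed between the sorts. Across 8680 genes with at least 100 reads, the ratio of sort 1 to sort 2 had a Spearman correlation of 0.54 with the GC content of the transcript, as a description of this pair of libraries. Transcripts of Clec12a and Clec4a2 were AT-rich, at 41.0% and 40.3% GC. After correction for GC content the ratio of Clec12a was -0.03 in place of -0.35, that of Clec4a2 0.04 in place of -0.30, that of Cd33 -0.25 in place of -0.43, and that of Lilrb4 0.22 in place of 0.00. For Cd300lf, at 50.9% GC, it was 0.43. Neutrophil markers were higher in sort 1 for 9 of 11 genes with a median log2 ratio of 0.24, and eosinophil markers for 1 of 9 with a median of -0.32. Granulocyte precursor markers were higher in sort 1 for 0 of 5 genes with a median of -0.46, erythroid markers for 1 of 8 with -0.45, and basophil and mast cell markers for 4 of 9 with -0.18. Monocyte and macrophage markers were higher in sort 1 for 8 of the 11 tested genes with a median of 0.32, and 4 of the 11 differed by more than 2-fold in either direction. B cell markers were higher for 7 of 11 with 0.29, dendritic cell markers for 7 of 10 with 0.09, and T and natural killer cell markers for 6 of 6 with 0.60. The part of these differences in the receptor ratios was not tested.

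**Figure D5:**
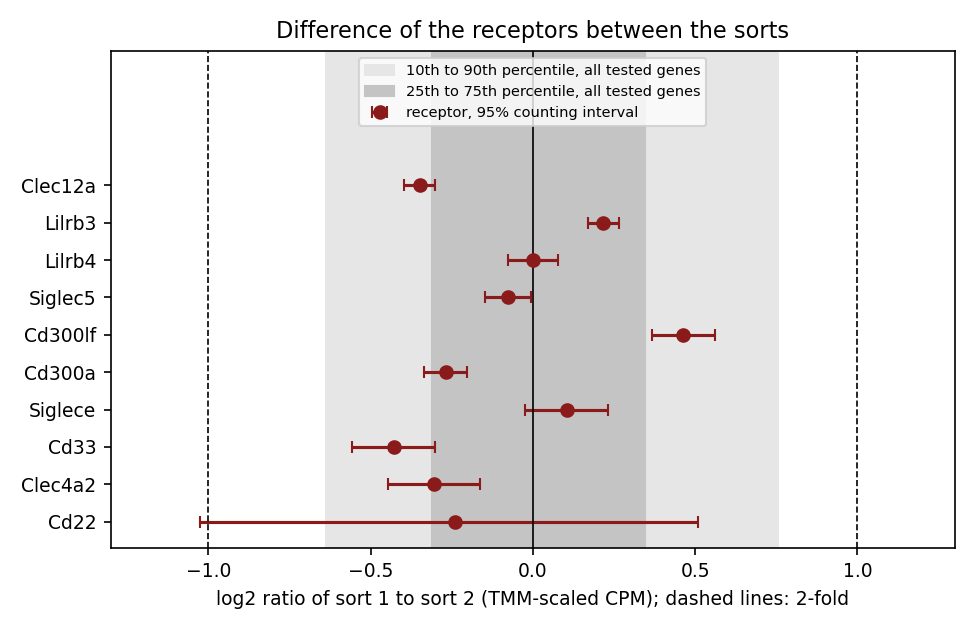
Log2 ratio of sort 1 to sort 2 for each receptor (points) with exact 95% binomial intervals for counting error, over the central 50% (dark grey) and 80% (light grey) of the 12347 tested genes, with 2-fold marked by dashed lines. Every receptor's ratio lay within the light band, from -0.64 to 0.75, and Cd300lf and Cd33 were the furthest from 0.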

How the data were processed

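Messenger RNA was measured in 2 libraries of 1 group. Reads were aligned with STAR 2.4.0c to mm10, per the submitters' processing notes. The authors deposited whole-number read counts per group of RefSeq transcripts and, beside them, RPKM values. No source used here states the counting program or any filter. The library size implied by the deposited RPKM exceeded the tables' totals, which were 25.0% of it in sort 1 and 22.9% in sort 2.

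Counts and RPKM were summed per symbol over 26099 rows. Detection needed 1 RPKM or more in each sort. Log2 ratios used CPM scaled by TMM (edgeR 4.0.16, R 4.3.3) with a prior count of 2, were tested on simulated data, and were called past 2-fold over genes with at least 10 reads. Intervals were exact binomial (scipy 1.17.1) and the GC curve was a lowess fit (statsmodels 0.14.6) over genes with at least 100 reads. No p-value was computed, as each sort has 1 library. Sequences came from RefSeq and GENCODE vM21 tables of the same build, and the comparisons of transcripts, coding sequences and promoters (Biopython 1.88) were added after the data were seen. Motifs of the proteins were not analysed here.

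The members and lists were chosen with earlier results of these data known. Named genes were all members, all Siglecs, the 4 highest others of each list and the 4 genes nearest to Siglec5; for marker lists, summed levels stand in place of the 4. Some genes that the rule names are not reported here. Further genes were named after their values were seen (the low members of the LILR, CD300 and lectin lists, Hcst, Pilra, Inpp5d, Ptpn6, Ptpn11, Chst1, Chst4, and the markers named beside Cd22). Alternatives were other minimums, CPM, other scalings (DESeq2 1.42.0), prior counts, filters and folds, a GC correction and leaving out each sort. List symbols absent from the tables were matched through RefSeq accessions, and Pira3, Pira5, Cd300ld2, Ly6g and the T cell marker Trac are not analysed here.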

Additional observations from a re-analysis of the deposited data

How the results depend on the processing

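Of the 10 receptors 9 stayed detected at minimums of 0.5 and 5 RPKM, and 10 passed a CPM of at least 1. Of the 45 ordered pairs, 44 to 45 kept their order with either sort left out, 40 with CPM and 45 with the highest row of each gene. Of the pairs, 41 did not overlap with CPM. No receptor passed 2-fold under DESeq2 size factors, total counts, RPKM + 0.1, a prior count of 0.5, GC correction or no read filter, and none passed 1.5-fold, which 26.1% of tested genes did. Over the family and pathway lists, 60 genes were detected at 1 RPKM, 72 at 0.5 RPKM and 93 at a CPM of at least 1, since CPM is not scaled by length and the tables' totals are smaller than the RPKM divisor. The log2 ratio changed sign in 3 of 50 recomputed values: Siglece to -0.02 and Clec4a2 to 0.04 with GC correction, and Lilrb4 to -0.05 with total counts. Genes past 2-fold numbered 1240 in all, 682 from RPKM + 0.1 and 2342 with no read filter. No paired analysis was possible because both libraries belong to 1 group. Depth limits Cd22 above all, with at most 33 reads per sort.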
